A study of Mus musculus with 3 samples.

Results

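The 7 genes described here, Il1b, Il1a, Il1rn, Il1r2, Il18, Nlrp3 and Casp1, code for interleukin 1 family proteins and the core of the inflammasome, and they were followed by name among the 30406 genes that the count tables of the 3 libraries share. They were measured by single-cell RNA sequencing (droplet 3′ tag counting with unique molecular identifiers, UMIs) in cells sorted from mouse hearts as CD45+F4/80+CD11b+, a surface gate for macrophages. All mice were wild type and 32 to 34 weeks old, and they differed in diet: WD (Western diet), HFD (high fat diet) and CD (control diet), with 1 library for each diet. The sources used here give neither the composition nor the duration of the diets, nor how many mice went into a library. With 1 library a diet, a difference between diets has no replicate check and no test was possible. The intervals below are exact 95% intervals of the UMI or cell counts and cover counting error only.

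A barcode was kept as a cell from 1000 UMIs and 200 genes upward and with no more than 10% mitochondrial UMIs, which left 4775 cells in the WD library, 2717 in the HFD library and 2679 in the CD library. Of these, 3717 (77.8%), 2002 (73.7%) and 2293 (85.6%) carried at least 0.3% of their UMIs in C1qa, C1qb and C1qc, the subunit genes of complement C1q that heart macrophages express, and they are called C1q-marked below. All 12 macrophage markers were detected in the C1q-marked cells of each library, with a summed level of 22998 CPM (UMIs of a gene per 1000000 UMIs) in WD, 50457 in HFD and 45882 in CD. The WD library was the deepest, with a median of 12242 UMIs per C1q-marked cell, against 2953.5 in HFD and 4319 in CD. It also stood apart from the other 2 libraries: per the file headers its counts were written by version 7.2.0 of the counting software and the others by version 3.0.1, and of its 6885 barcodes only 92 (1.34%) also appeared among the barcodes listed for CD. Kept cells shared 0 barcodes between WD and HFD, 1 between WD and CD and 15 between HFD and CD.

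Interleukin 1 beta and interleukin 18 are made as inactive precursors and are cut to their active forms by caspase-1, the protease that assembles with the sensor NLRP3 and the adaptor ASC into the inflammasome. Interleukin 1 alpha is active without that cut and acts through the same receptor. The family is held in check by the receptor antagonist coded by Il1rn, which occupies the signalling receptor, and by the decoy receptor coded by Il1r2, which binds the ligand without signalling. Macrophages and neutrophils are major sources of interleukin 1 beta in the injured heart. UMIs count transcripts and say nothing of cleavage or release.

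In the GENCODE models of the mouse genome build GRCm38, Il1b lay at chr2:129364570-129371139 and Il1a at chr2:129299610-129309972, both on the minus strand, and Il1rn lay at chr2:24336853-24351494 on the plus strand. The other 4 genes are on plus strands, Il1r2 at chr1:40074079-40125231, Il18 at chr9:50554827-50581840, Nlrp3 at chr11:59541568-59566956 and Casp1 at chr9:5298517-5307265. Il1bos, an antisense gene that overlaps Il1b, had 2.66 CPM in WD, 0.303 CPM in HFD and 1.14 CPM in CD in the cells described below. The promoters (RefSeq, GRCm38.p6) of Il1b, Il1a and Nlrp3, which were higher together in the WD library, are printed with that of Il18, which was not, from 250 bases before to 50 after an annotated start. Each is written 5′ to 3′ on the strand of its gene. Capitals mark matches, on either strand, to motifs of factors that act on macrophage genes. TATAAA stands for the core promoter box of that name. The C/EBP factors were searched as TTGNNNAA, PU.1 as GAGGAA and AP-1 as TGANTCA, and NF-kappaB was searched as GGG and CC with 5 bases between.
Il1b promoter, chr2:129371090-129371389, minus strand: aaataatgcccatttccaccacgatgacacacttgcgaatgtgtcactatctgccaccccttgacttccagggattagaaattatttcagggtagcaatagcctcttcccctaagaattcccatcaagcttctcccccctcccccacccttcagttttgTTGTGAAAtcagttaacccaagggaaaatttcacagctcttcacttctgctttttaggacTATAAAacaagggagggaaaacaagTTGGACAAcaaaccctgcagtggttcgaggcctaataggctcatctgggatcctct
Il1a promoter, chr2:129309923-129310222, minus strand: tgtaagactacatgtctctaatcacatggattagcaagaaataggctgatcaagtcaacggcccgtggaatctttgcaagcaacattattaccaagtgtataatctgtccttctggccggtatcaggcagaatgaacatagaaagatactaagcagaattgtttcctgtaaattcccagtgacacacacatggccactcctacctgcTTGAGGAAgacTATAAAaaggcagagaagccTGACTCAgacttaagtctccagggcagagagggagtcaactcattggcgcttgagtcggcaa
Nlrp3 promoter, chr11:59541319-59541618, plus strand: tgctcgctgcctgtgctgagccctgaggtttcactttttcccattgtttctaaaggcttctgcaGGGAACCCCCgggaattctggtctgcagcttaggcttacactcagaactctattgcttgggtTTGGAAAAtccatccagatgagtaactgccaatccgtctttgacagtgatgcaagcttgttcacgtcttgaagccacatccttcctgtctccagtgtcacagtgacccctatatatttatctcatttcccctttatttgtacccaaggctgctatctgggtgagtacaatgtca
Il18 promoter, chr9:50554450-50554749, plus strand: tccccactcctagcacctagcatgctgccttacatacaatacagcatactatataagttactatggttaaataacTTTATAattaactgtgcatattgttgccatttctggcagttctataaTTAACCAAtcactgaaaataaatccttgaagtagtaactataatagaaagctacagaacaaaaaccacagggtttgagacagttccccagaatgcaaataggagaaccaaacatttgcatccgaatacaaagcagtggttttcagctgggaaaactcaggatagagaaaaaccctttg
The Il1b promoter held TATAAA at -31 and TTGNNNAA at -91 and -6, counted in bases from the start. In the Il1a promoter TATAAA stood at -32, TGANTCA at -12 and TTGNNNAA at -43, which overlapped a GAGGAA at -41. The Nlrp3 window had the NF-kappaB motif at -186 and TTGNNNAA at -124. RefSeq holds a further Nlrp3 start, whose window at chr11:59542436-59542735 has the NF-kappaB motif at -8, TTGNNNAA at -23 and GAGGAA at -220, -129 and -36. In the Il18 promoter TATAAA at -175 and TTGNNNAA at -128 were on the opposite strand. Of 32851 mouse promoters of the same length, 13.6% held TATAAA, 36.7% TTGNNNAA, 28.3% GAGGAA, 7.81% TGANTCA and 50.8% the NF-kappaB motif, so each motif is common and a match is a description of these letters only.

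Among the ligands, Il1b had 797 CPM (790 to 804) in C1q-marked cells of the WD library, 75.02 CPM (68.6 to 81.9) in the HFD library and 170 CPM (163 to 178) in CD. These levels rest on 47705, 495 and 1937 UMIs, and the 3 intervals do not overlap, with WD highest and HFD lowest. Because the libraries differ in depth, cells were also thinned to 1000 UMIs each. Il1b was then detected in 26.3% of WD cells, 6.19% of HFD cells and 9.16% of CD cells, against 52.4%, 11.8% and 18.7% before thinning. NK-like and endothelial-like cells, which lacked the C1q mark, were used to gauge stray RNA, which holds only for genes that they do not express themselves. Some other cells without that mark held more Il1b, as given below with the groups by Ccr2 and Lyve1. After thinning, Il1b was found in 2.68% of 149 NK-like cells of the WD library (median 6982 UMIs), in 0.586% of 512 endothelial-like cells of the HFD library (median 1833 UMIs) and in 0 of 202 endothelial-like cells of the CD library (median 2656.5 UMIs), which allows a share of up to 1.49%. In 36 fibroblast-like cells of the WD library the share was 5.56%, from 2 cells. With mitochondrial genes left out, Il1b had 78.5 CPM in C1q-marked cells of HFD and 177 CPM in those of CD, against 54.0 CPM and 255 CPM in barcodes with fewer than 100 UMIs.

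Il1a, the ligand that is active without cleavage, had 26.1 CPM (24.8 to 27.4) in WD, 0.303 CPM (0.0367 to 1.09) in the HFD library and 0.878 CPM (0.421 to 1.61) in CD, from 1560, 2 and 10 UMIs. Nearly all of its UMIs were thus in the WD library, the deepest. After thinning 2.07% of WD cells held it, against 0.0500% in HFD and 0.0872% in CD, where single cells decide the value. In the NK-like cells of the WD library it was detected in 0.671%.
Il18, the other caspase-1 substrate, had 34.9 CPM (33.4 to 36.5) in WD, 35.5 CPM (31.1 to 40.3) in the HFD library and 37.9 CPM (34.4 to 41.7) in CD. The intervals overlap between all 3 libraries, and the thinned shares of cells, 3.36%, 3.60% and 3.18%, lay as close. In the same libraries 0.671% of NK-like cells in WD, 0 of 512 endothelial-like cells in HFD (which allows up to 0.586%) and 0.495% of endothelial-like cells in CD held an Il18 UMI.

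Il1rn, which codes for the receptor antagonist, had 37.1 CPM (35.6 to 38.7) in WD, 4.85 CPM (3.32 to 6.85) in the HFD library and 15.4 CPM (13.2 to 17.8) in CD. Il1r2, which codes for the decoy receptor, had 127 CPM (124 to 130) in WD, 3.49 CPM (2.21 to 5.23) in the HFD library and 16.0 CPM (13.7 to 18.5) in CD. Both followed the order of Il1b, with WD highest and HFD lowest and no overlap of intervals. The HFD levels rest on 32 UMIs of Il1rn and 23 of Il1r2. After thinning, Il1rn was found in 2.56% of WD, 0.649% of HFD and 0.959% of CD cells, and Il1r2 in 5.35%, 0.400% and 1.31%. Neither was found in the 149 NK-like cells of WD (up to 2.01% allowed) or the 512 endothelial-like cells of HFD (up to 0.586% allowed), and neither was found in the 202 endothelial-like cells of CD (up to 1.49% allowed). The Il1r2 share in HFD and the shares of both genes in CD are therefore not above those limits. The CPM levels have a background too, from barcodes with fewer than 100 UMIs, of which the WD file lists none. With mitochondrial genes left out of the total, C1q-marked cells of HFD had 3.65 CPM of Il1r2, against 6.30 CPM in these barcodes (12 UMIs). In CD the cells had 15.98 CPM of Il1rn, against 16.7 CPM in these barcodes (23 UMIs), and 16.6 CPM of Il1r2, against 20.3 CPM (28 UMIs). The levels of Il1r2 in HFD and CD and of Il1rn in CD were thus not above those in the near-empty barcodes. Il1rn in HFD had 5.07 CPM in C1q-marked cells, against 1.57 CPM in these barcodes, from 3 UMIs. Such a level gives the make-up of the RNA in these barcodes, not how much of it a cell holds. With all genes counted, endothelial-like cells of CD had 1.58 CPM of Il1rn (0.04 to 8.80) and 0 CPM of Il1r2 (up to 5.83). Both lay below the C1q-marked cells of CD. Endothelial-like cells of HFD had 0 CPM of Il1rn (up to 3.10) and 0.841 CPM of Il1r2 (0.0213 to 4.69). Only the Il1r2 interval overlapped that of the C1q-marked cells.
Set against each other within a library, Il1b had 21.5 UMIs per Il1rn UMI (20.6 to 22.4) in WD, 15.5 (10.8 to 22.9) in HFD and 11.1 (9.48 to 13.0) in CD. The WD ratio lay above that of CD, and the HFD interval overlapped both. Without the cells that also carried S100a8 and S100a9, described below, the ratio was 18.7 (17.8 to 19.6) in WD, 15.6 (10.8 to 23.4) in HFD and 6.87 (5.76 to 8.24) in CD, so that HFD then lay above CD with no overlap. In C1q-marked cells of CD neither gene was above the near-empty barcodes, with 177 against 255 CPM of Il1b and 15.98 against 16.7 CPM of Il1rn. Endothelial-like cells of CD, with all genes counted, had 3.16 CPM of Il1b and 1.58 CPM of Il1rn. The part of background in these ratios was not tested.

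Of the inflammasome genes, Nlrp3, the sensor, had 244 CPM (240 to 248) in WD, 12.6 CPM (10.0 to 15.6) in the HFD library and 24.8 CPM (22.0 to 27.9) in CD. In thinned cells it was detected in 18.4% of WD, 1.20% of HFD and 2.01% of CD cells, against 4.70% of NK-like cells in WD, 0 of 512 endothelial-like cells in HFD and 0.495% of endothelial-like cells in CD. Casp1, the protease, was lowest in WD, with 41.2 CPM (39.6 to 42.9) in WD, 65.3 CPM (59.3 to 71.8) in the HFD library and 82.3 CPM (77.1 to 87.7) in CD. Its thinned shares were 4.39%, 5.54% and 7.85%, and its share was 2.68% in NK-like cells of WD and 3.32% and 2.97% in endothelial-like cells of HFD and CD. The interval of the NK-like share (0.736% to 6.73%) holds the WD share of C1q-marked cells, so Casp1 was not detectably above those cells in WD. Casp1 had 38.6 CPM in these NK-like cells, and 31.1 and 28.4 CPM in endothelial-like cells of HFD and CD. Whether these classes express Casp1 themselves was not tested, so their level is not read as background. With mitochondrial genes left out, Nlrp3 had 13.2 CPM in C1q-marked cells of HFD and 25.8 CPM in those of CD, against 11.02 CPM and 27.6 CPM in barcodes with fewer than 100 UMIs. Casp1 had 68.3 CPM and 85.6 CPM in the cells, against 56.1 CPM and 84.2 CPM in those barcodes. With all genes counted, Nlrp3 had 0 CPM (up to 3.10) in endothelial-like cells of HFD and 1.58 CPM in those of CD.

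**Figure D1:**
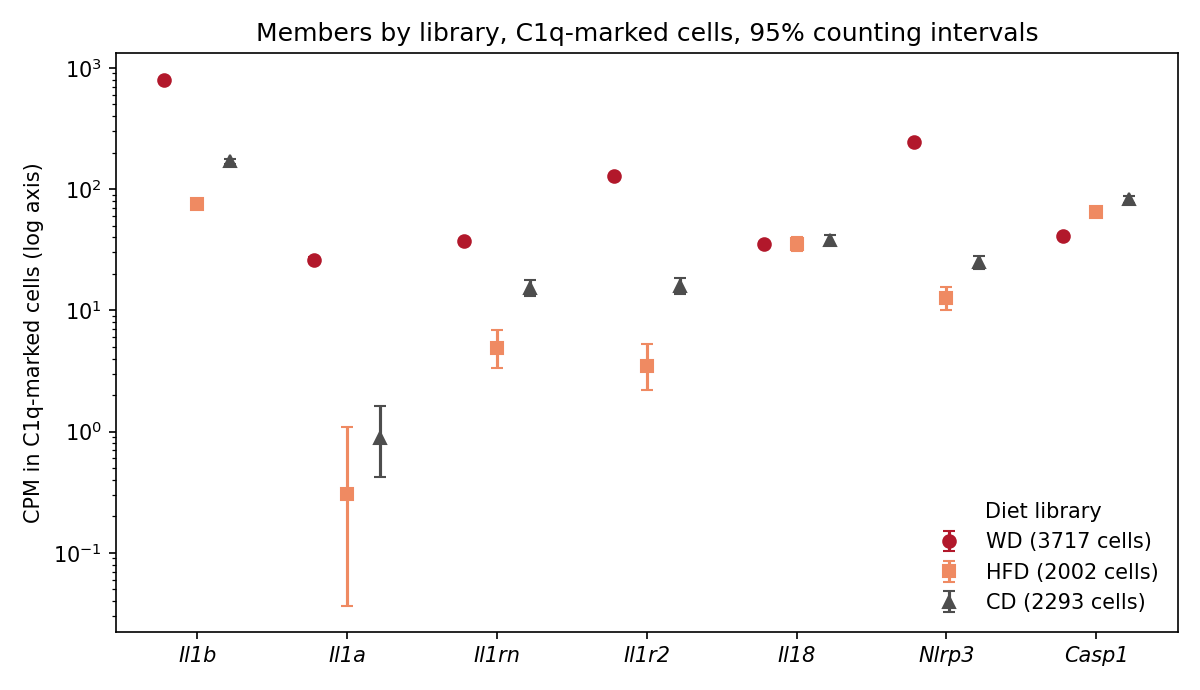
Level of each gene in C1q-marked cells, in CPM on a log axis, with 1 point per diet library (WD, HFD, CD) and exact 95% counting intervals. Il1b, Il1rn, Il1r2 and Nlrp3 are highest in WD and lowest in HFD, the Il18 points lie together between 34.9 and 37.9 CPM, and Casp1 is lowest in WD.

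Each diet library was compared with the CD library gene by gene, and a gene was counted as higher or lower where its CPM differed by at least 1.5-fold with at least 20 UMIs over both libraries. In WD over CD, 5 of the 7 members were higher, Il1a 29.7-fold (16.1 to 62.0), Nlrp3 9.84-fold (8.74 to 11.1), Il1r2 7.95-fold (6.87 to 9.26), Il1b 4.69-fold (4.48 to 4.91) and Il1rn 2.42-fold (2.07 to 2.83). Casp1 was lower 1.996-fold (1.85 to 2.15), and Il18, at a ratio of 0.921 (0.830 to 1.02), was neither. Il1a reached the minimum of UMIs through the WD library alone. The background of this comparison is wide: 47.4% of the 14467 genes compared were higher by the same rule and 26.8% were lower, so the members' counts cannot be read as particular to them.
The WD difference went with gene structure. Over 5 bins of all genes by summed intron length, each with about the same number of genes and ordered by length, the median log2 ratio of WD over CD was -0.84, -0.45, 0.08, 0.86 and 2.07, while that of HFD over CD ran between -0.07 and 0.00. Within its own bin, Il1a stood at the 99.1st percentile, Nlrp3 at 96.8, Il1b (in the bin with the shortest introns) at 95.2, Il1r2 at 93.3 and Il1rn at 88.6. Il18 stood at 43.1 and Casp1 at 28.6, and with the median of its bin taken away Casp1 had a log2 ratio of -0.54, which is no longer 1.5-fold. The sources used here do not say whether introns were counted. The WD file also lists 32285 genes, against 31053 in each of the HFD and CD files. The software, the gene list, the barcode set and the Western diet cannot be told apart.

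**Figure D2:**
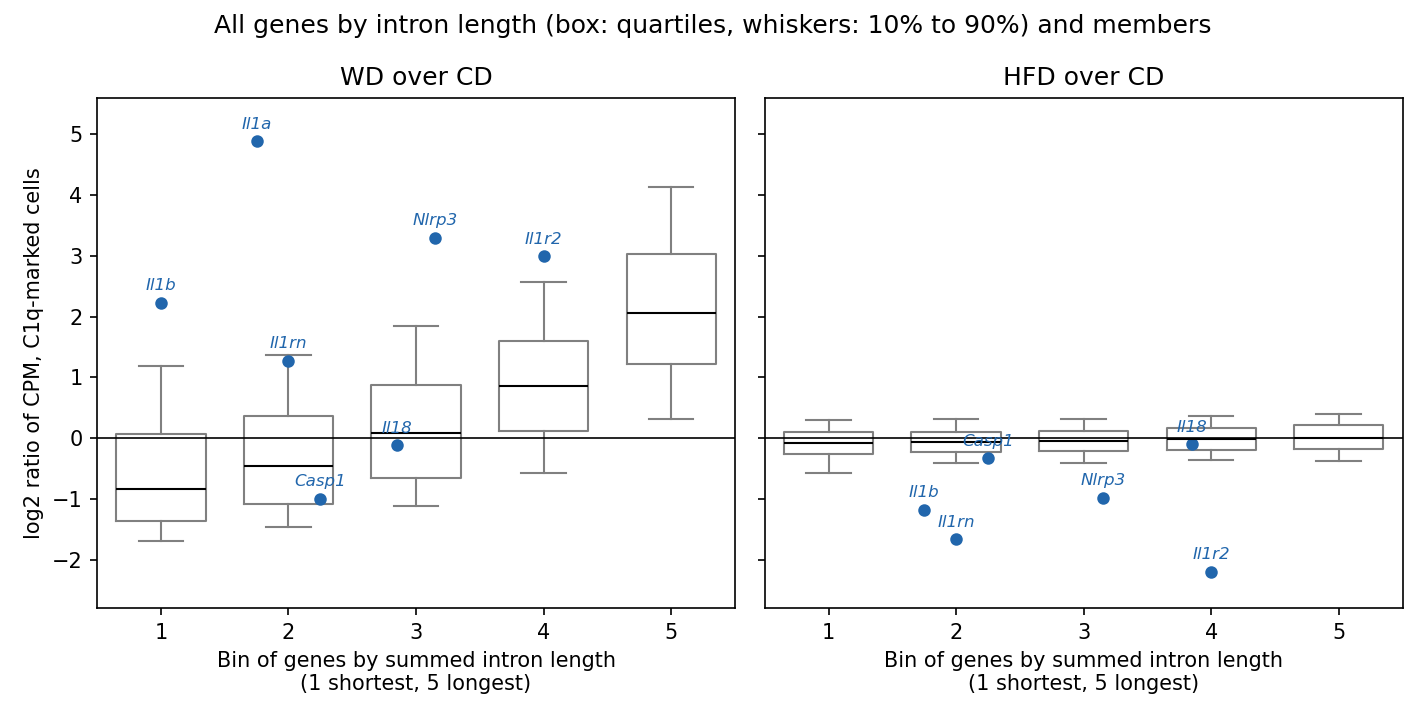
Log2 ratio of CPM in C1q-marked cells for all genes (boxes show quartiles, whiskers the 10% and 90% points) in 5 bins by summed intron length, with the members as blue points, WD over CD on the left and HFD over CD on the right. In WD over CD the box medians climb with intron length between -0.84 and 2.07 and Il1a, Nlrp3, Il1b and Il1r2 lie above the whiskers of their bins, while in HFD over CD the boxes stay near 0 and Il1b, Il1rn, Il1r2 and Nlrp3 lie below the whiskers.

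In HFD over CD, where both libraries came from the same software version, 4 of the 6 members with enough UMIs were lower and 0 were higher, beside 8.41% lower and 6.74% higher among 11239 genes. Il1r2 was lower 4.58-fold (2.96 to 7.42), Il1rn 3.17-fold (2.16 to 4.77), Il1b 2.27-fold (2.05 to 2.51) and Nlrp3 1.98-fold (1.54 to 2.55). Il18 had a ratio of 0.935 (0.794 to 1.10) and Casp1 was 1.26-fold lower, both short of 1.5-fold, and Il1a had 12 UMIs in all, too few to compare. Il1rn fell short when cells were thinned to 1000 UMIs (log2 -0.36). The 4 lower members were also lower in HFD than in CD in near-empty barcodes, with mitochondrial genes left out. These had 54.0 against 255 CPM of Il1b, 1.57 against 16.7 of Il1rn, 6.30 against 20.3 of Il1r2 and 11.02 against 27.6 of Nlrp3. Casp1 was lower there too, 56.1 against 84.2 CPM, and Il18 was not, 30.95 against 26.8 CPM. In CD the C1q-marked cells were not above these barcodes for any of the 4. Endothelial-like cells, with all genes counted, had less of the 4 than C1q-marked cells. They held between 0 and 3.16 CPM in CD and between 0 and 5.05 CPM in HFD, each from 6 UMIs or fewer. The part of background in the HFD ratios was not tested. In WD over HFD, Il1r2 (36.5-fold), Nlrp3 (19.4-fold), Il1b (10.6-fold) and Il1rn (7.65-fold) were higher and Casp1 was lower 1.59-fold (1.43 to 1.76), beside 47.9% of genes higher and 25.9% lower. Il1a was higher too (86.0-fold, 23.8 to 711), but with 2 UMIs in HFD it reached the minimum of UMIs through the WD library alone. Casp1 came short of 1.5-fold with cells thinned to 1000 UMIs (log2 -0.29) and with centring by intron length (log2 -0.25). The comparisons share libraries, so they are not independent of each other.

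The cell make-up of the C1q-marked cells moved with these levels. Their 12 neutrophil markers, S100a8 and S100a9 among them, summed to 1270 CPM in WD, 194 CPM in HFD and 886 CPM in CD. Mmp8, Ly6g, Camp, Ltf and Ngp were at 0 in HFD and Ltf was at 0 in CD. When cells that also carried S100a8 and S100a9 UMIs at 0.3% or more were left out, Il1b had 640 CPM (634 to 647) in WD, 71.6 CPM (65.3 to 78.4) in the HFD library and 93.1 CPM (87.4 to 99.2) in CD. The HFD over CD ratio of Il1b then came to 0.769 (0.687 to 0.859), short of 1.5-fold, and 3 of 6 members were lower, beside 8.17% of all genes. Il1r2 was among them with a log2 ratio of -0.62, against -2.20 with those cells. That difference, 1.54-fold lower (0.911 to 2.69), rests on 21 UMIs in HFD and 52 in CD, and its interval holds a ratio of 1. Nlrp3 had -0.61 and Il1rn had -1.57. The WD over CD ratio of Il1b was larger without these cells, 6.87-fold (6.45 to 7.33), as was that of Il1r2, 13.9-fold (10.6 to 18.6).
Genes of the immediate early response, which are also known to be induced while tissue is digested, moved in the same order. Their 16 genes summed to 27202 CPM in WD, 3951 CPM in HFD and 9515 CPM in CD, and 14 of 16 were higher in WD over CD (median log2 1.69), beside 47.4% of all genes higher and an all-gene median of 0.46. In HFD over CD 15 of 16 were lower (median log2 -1.76), beside 8.41% of all genes lower and an all-gene median of -0.03. All hearts were minced and digested with collagenase for 30 minutes at 37 °C, per the labels. The part of these genes' response in the members' levels was not tested.

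**Figure D3:**
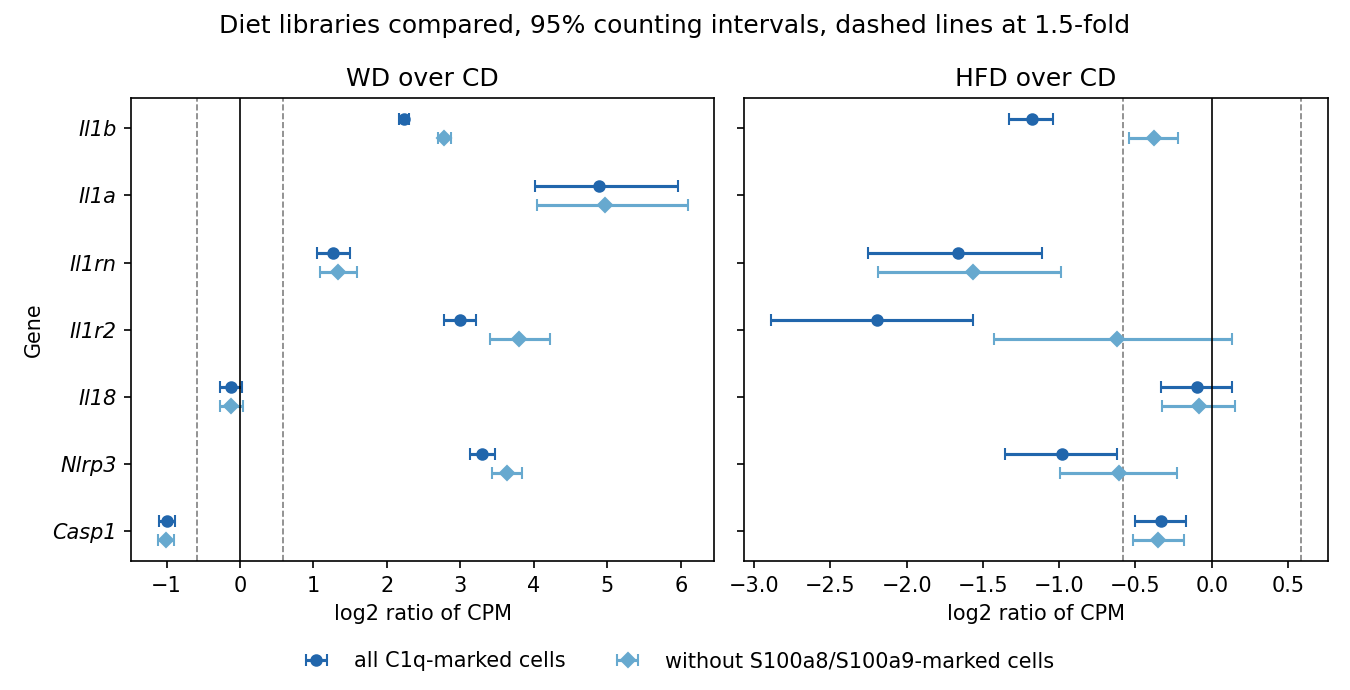
Log2 ratio of CPM for each gene with exact 95% counting intervals, WD over CD on the left and HFD over CD on the right, in all C1q-marked cells (circles) and without cells that carry S100a8 and S100a9 at 0.3% of UMIs (diamonds), dashed lines at 1.5-fold. Without those cells Il1b in HFD over CD lies inside the dashed lines and Il1r2 moves close to the line, while Il18 stays near 0 in both panels.

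S100a8 and S100a9 code for calprotectin, an abundant protein of neutrophils and monocytes. Cells with at least 0.3% of UMIs in these genes, called S100-marked below, numbered 256 in WD, 14 in HFD and 136 in CD. Most of them were C1q-marked as well, 170 of 256 in WD, 13 of 14 in HFD and 126 of 136 in CD. Il1b had 3175 CPM (3129 to 3223) in S100-marked cells of WD, 683 CPM (473 to 955) in the HFD library and 1263 CPM (1190 to 1340) in CD. Thinned to 1000 UMIs, 88.7%, 57.1% and 62.5% of these cells held an Il1b UMI.
Against the C1q-marked cells without the S100 mark, Il1b was 4.96-fold higher (4.87 to 5.05) in WD, 9.54-fold (6.53 to 13.5) in HFD and 13.6-fold (12.4 to 14.8) in CD. Il1r2 was 15.1-fold higher (14.5 to 15.7) in WD, 12.5-fold (1.42 to 51.3, from 2 UMIs) in HFD and 32.4-fold (23.4 to 45.5) in CD. Il1rn was 2.23-fold higher (2.0 to 2.48) in WD, 8.77-fold (1.02 to 34.6, from 2 UMIs) in HFD and 3.96-fold (2.78 to 5.54) in CD. These members, with Nlrp3, made 4 that were at least 1.5-fold higher in all 3 libraries, of 6 with enough UMIs in each (Il1a had too few). Among all genes, 9.49%, 23.8% and 11.7% were higher and 12.2%, 47.5% and 17.7% lower in WD, HFD and CD. The share of genes higher in all 3 libraries was not computed. Nlrp3 passed narrowly in WD at 1.56-fold (1.49 to 1.63) and on 1 UMI in HFD, and more clearly in CD at 5.09-fold (3.91 to 6.60). Il18 and Casp1 did not differ by 1.5-fold in WD or CD, with log2 ratios of 0.16 and 0.12 for Il18 and -0.09 and -0.36 for Casp1. In HFD both were lower by more than 1.5-fold, with log2 ratios of -0.82 for Il18 on 1 UMI and -0.71 for Casp1 on 2 UMIs, and both intervals hold a ratio of 1. The HFD values rest on 14 cells, and with cells thinned to 1000 UMIs only 1 member, Il1b, passed in each library, with log2 ratios of 3.29 in WD, 4.01 in HFD and 4.44 in CD.

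**Figure D4:**
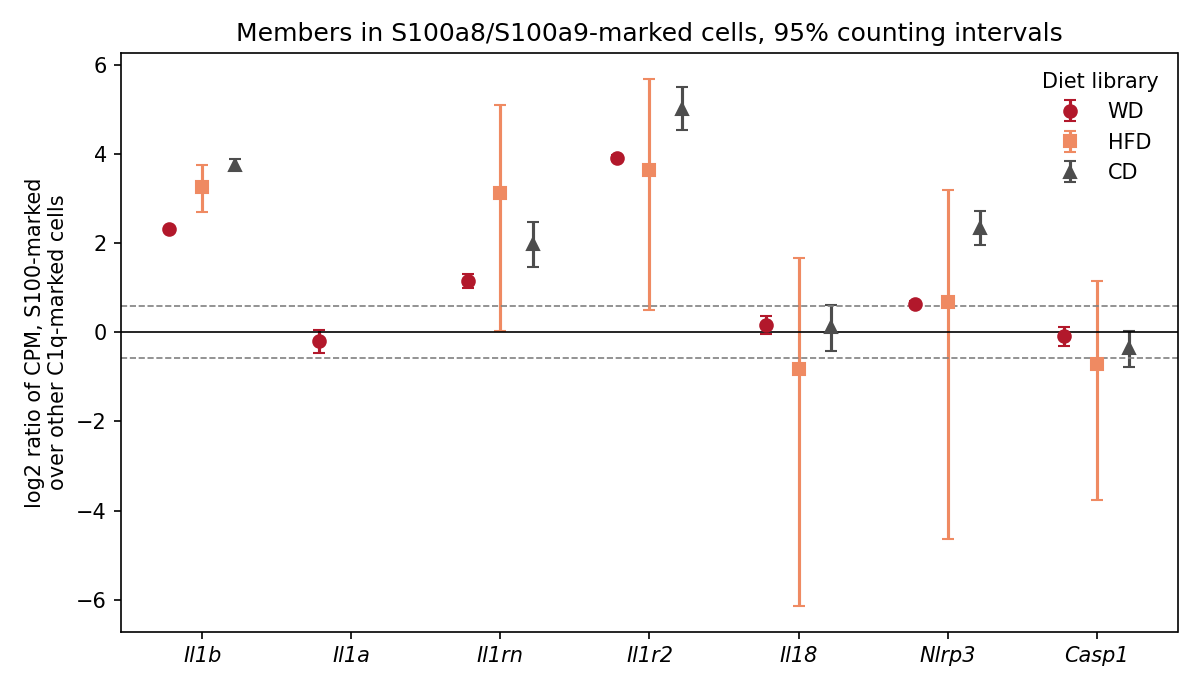
Log2 ratio of CPM in S100-marked cells over the other C1q-marked cells, with 1 point per diet library (WD, HFD, CD), exact 95% counting intervals and dashed lines at 1.5-fold. Il1b and Il1r2 lie well above the line in WD and CD, Il18 and Casp1 lie near 0 there, and the HFD intervals, from 14 cells, are wide.

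S100-marked cells without the C1q mark, 86 in WD and 10 in CD, had more Il1b again, 8018 CPM (7800 to 8241) in WD and 5186 CPM (4392 to 6082) in CD. In the single such cell of HFD 8 Il1b UMIs were counted. Il1r2 reached 2984 CPM in these cells of WD and 343 CPM in CD, and Nlrp3 694 CPM and 103 CPM, the last from 3 UMIs. Their summed neutrophil markers were 42105 CPM in WD and 49763 CPM in CD, against 12583 CPM and 9965 CPM in cells with both marks. The 12 markers include S100a8 and S100a9, by which all these cells were chosen, so a high sum was in part set by the choice. Of the 12, 11 were detected in these cells of WD and 3 in the single cell of HFD.
Cells with both marks held a larger share of some members' UMIs than of all UMIs in the C1q-marked cells. In WD they were 4.57% of cells and 8.23% of all UMIs, and they held 26.3% of Il1b, 50.5% of Il1r2, 15.1% of Il1rn and 11.01% of Nlrp3 UMIs. Their share of Il1a UMIs in WD was 6.22%, below their share of all UMIs. In CD they were 5.49% of cells and 7.43% of all UMIs, and they held 49.3% of Il1b, 71.4% of Il1r2, 18.3% of Il1rn and 29.0% of Nlrp3 UMIs. For Il18 and Casp1 their share lay close to their share of all UMIs, 8.52% and 7.46% in WD and 7.87% and 6.08% in CD. In HFD 13 such cells held 5.25% of Il1b UMIs. Cells with both marks had a median of 24060 UMIs in WD and 6226 in CD, and C1q-marked cells without the S100 mark had 11983 in WD and 4269 in CD. Per the labels doublets were excluded in the sort, no doublet caller was run on the counts here, and the part of doublets was not tested.

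The C1q-marked cells were then split by detection of 3 genes: Ccr2, the chemokine receptor of monocyte-derived macrophages, Lyve1, a receptor of vessel-associated resident macrophages, and Tmem119, best known as a microglial marker. Il1a had too few UMIs in HFD and CD to be compared in all 3 libraries. None of the other 6 members differed by 1.5-fold in the same direction in all 3 libraries in any of the 3 splits. Il1b was higher in Ccr2-detected cells in WD, 1027 CPM against 669 CPM in cells without Ccr2, and in CD, 247 CPM against 126 CPM. In HFD it was lower, 52.9 CPM against 82.8 CPM. With cells thinned to 1000 UMIs none of the 3 differences reached 1.5-fold, at log2 0.46 in WD, -0.28 in HFD and 0.07 in CD. Nlrp3 had 240 CPM against 247 CPM in WD, 11.05 CPM against 13.1 CPM in HFD and 35.9 CPM against 18.6 CPM in CD, where the ratio was 1.94-fold. Among all genes, 10.1%, 7.4% and 8.73% were higher and 6.79%, 19.2% and 10.5% lower in Ccr2-detected cells of WD, HFD and CD. Ccr2-detected cells were deeper, with a median of 20138 UMIs against 11201 in WD, 3717 against 2731 in HFD and 5103 against 4111.5 in CD. The part of depth in the split was not tested.
By Lyve1, Il1b had 714 CPM in detected and 1159 CPM in not detected cells of WD, 22.5 CPM and 114 CPM in HFD, and 174 CPM and 165 CPM in CD. It was thus lower in Lyve1-detected cells of WD and HFD. The WD difference came just short of 1.5-fold with a mitochondrial limit of 5% (log2 -0.56) and with the C1q mark at 1% of UMIs (log2 -0.57). In CD the log2 ratio was 0.08, and -0.48 without S100-marked cells. Il1r2 was higher in Lyve1-detected cells of WD, 140 CPM against 72.2 CPM, and of CD, 20.9 CPM against 9.63 CPM, and lower in HFD, 0.715 CPM against 5.53 CPM, from 2 and 21 UMIs. Among all genes, 12%, 11.6% and 8.24% were higher and 7.4%, 8.27% and 8.72% lower in Lyve1-detected cells of WD, HFD and CD. Neutrophil markers summed to 1407 CPM in Lyve1-detected and 667 CPM in other cells of WD, 172 CPM and 211 CPM in HFD, and 1046 CPM and 681 CPM in CD.
By Tmem119, detected in 259 WD, 120 HFD and 108 CD cells, Il1b had 1061 CPM in detected and 767 CPM in not detected cells of WD, 265 CPM and 61.4 CPM in HFD, and 201 CPM and 168 CPM in CD. The difference passed 1.5-fold in HFD, where 12.6% of all genes were higher and 23.1% lower, and where S100a8 and S100a9 were at 0 in the Tmem119-detected cells. In CD the log2 ratio was 0.26, and -0.72 with cells thinned to 1000 UMIs. Among all genes 6.74% were higher and 8.8% lower in WD, and 12.5% higher and 18% lower in CD.

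With S100-marked cells set aside, the remaining C1q-marked cells were sorted into separate groups by Ccr2 and Lyve1. Il1b was lowest in the group with Lyve1 alone in each library, 390 CPM (383 to 397) in WD, 18.7 CPM (13.7 to 24.9) in the HFD library and 44.5 CPM (38.4 to 51.3) in CD. In the HFD library the interval of the group with both genes, 34.7 CPM (17.3 to 62.2), overlapped it. In cells with neither gene Il1b had 1091 CPM (1066 to 1117) in WD, 142 CPM (127 to 158) in the HFD library and 107 CPM (94.6 to 120) in CD. In that group HFD was above CD, by less than 1.5-fold. With Ccr2 alone it had 1058 CPM in WD, 54.5 CPM in HFD and 114 CPM in CD, and with both genes 816 CPM in WD and 181 CPM in CD. In the same groups Casp1 stayed between 37.0 and 44.9 CPM in WD, 58.8 and 79.0 CPM in HFD, and 65.2 and 98.7 CPM in CD, so WD lay below HFD and CD in all 4 groups. Il18 lay between 29.8 and 50.9 CPM over the 4 groups of all 3 libraries. Cells with neither the C1q nor the S100 mark held Il1b too. Those with Ccr2 alone had 960 CPM in WD (347 cells), 44.6 CPM in HFD (128 cells) and 279 CPM in CD (94 cells). Those with neither Ccr2 nor Lyve1 had 485 CPM in WD (388 cells), 13.0 CPM in HFD (571 cells) and 19.0 CPM in CD (277 cells).

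**Figure D5:**
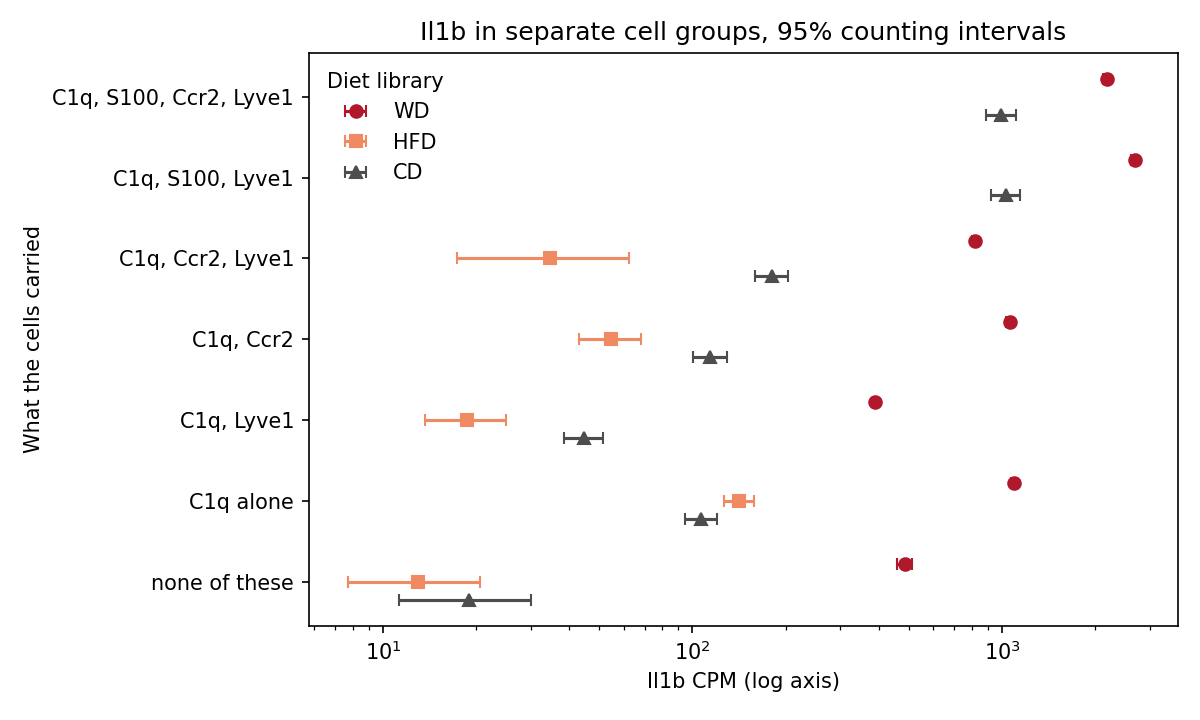
Il1b level in CPM on a log axis, with exact 95% counting intervals, in 7 separate groups of kept cells named by what they carried (C1q and S100 marks, Ccr2 and Lyve1 detected), for the diet libraries with at least 30 cells in the group. HFD has no S100-marked group of that size, and among the groups with C1q but no S100 mark the group with Lyve1 alone is lowest in each library. Of the cells without the C1q mark, only those that carried none of these are drawn.

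Il1b UMIs were not evenly spread over the C1q-marked cells. The top 1% of C1q-marked cells by Il1b held 13.3% of its UMIs in WD, 29.5% in HFD and 22.7% in CD, and the highest cell had 256, 14 and 29 Il1b UMIs. By the same measure the top 1% held 8.72%, 12.8% and 10.1% of Casp1 UMIs. They held more of Il1rn, 22.8%, 90.6% and 45.1%, and of Il1r2, 29.8%, 100% and 43.4%, from few UMIs in HFD and CD. For Nlrp3 the shares were 8.94%, 33.7% and 24.0%, and for Il18 11.3%, 19.2% and 12.5%. In WD the top 1% held 30.3% of Il1a UMIs. For each gene the top 1% was picked on that gene's own unthinned UMIs, so the share rises where UMIs are few and where depth varies. No baseline was computed, so these shares do not rank the genes or libraries by concentration. Thinned cells with an Il1b UMI, 979 in WD, 124 in HFD and 210 in CD, were set against those without. Il1r2 was found in 14.0% of cells with Il1b and 2.26% of cells without in WD, in 2.42% and 0.266% in HFD, and in 10.95% and 0.336% in CD. Nlrp3 was found in 26.8% with Il1b and 15.4% without in WD, in 0.806% and 1.22% in HFD, and in 5.24% and 1.68% in CD. Lyve1 was detected in 28.4% and 44.1% in WD, 3.23% and 22.8% in HFD, and 20.5% and 24.2% in CD. The Il1r2 share was thus higher in cells with Il1b in each library, with 3 cells behind the HFD value. Casp1 was found in 2.66% with Il1b and 5.00% without in WD, 5.65% and 5.54% in HFD, and 5.71% and 8.07% in CD.

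Of 59 further gene symbols of interleukin 1 signalling, inflammasomes, pyroptosis and its inhibitors, 55 were in the files. The others, Il36a, Il36b, Il36g and Il36rn, are second names of listed genes that were found as Il1f6, Il1f8, Il1f9 and Il1f5. In WD over CD, 33 of 49 with enough UMIs were higher, 7 lower and 9 neither, with a median log2 ratio of 1.36 beside 0.46 for all genes, of which 47.4% were higher and 26.8% lower. The largest differences were in other sensors, Nlrp1b (80.2 CPM in WD, 1.36 in HFD, 1.84 in CD, 43.5-fold in WD over CD, 28.4 to 70.4) and Nlrp1a (20.02-fold), in Casp4, the caspase that senses bacterial lipopolysaccharide (808 CPM, 21.5 and 35.1, 23.0-fold), in Tnfaip3, an inhibitor of NF-kappaB (604 CPM, 4.70 and 21.2, 28.5-fold), and in the receptor chains Il1rap (70.1 CPM, 4.70 and 4.13, 17.0-fold) and Il1r1 (16.9-fold). The following genes, which act beside Casp1 or on Il18, were chosen after their values were seen. Pycard, which codes for the adaptor ASC, had 57.9 CPM in WD, 160 in HFD and 183 in CD and was lower 3.16-fold (2.996 to 3.342) in WD over CD. Gsdmd, whose protein forms the pore of pyroptosis, had 21.1 CPM in WD, 39.0 in HFD and 45.4 in CD and was lower 2.15-fold (1.94 to 2.38). Il18bp, the soluble inhibitor of interleukin 18, was lower 2.98-fold (2.35 to 3.78). None of these pathway ratios, higher or lower, was centred by intron length. Of all genes in the bin with the shortest introns 59.2% were lower in WD over CD, and of those in the bin with the longest introns 87.3% were higher.
In HFD over CD, 0 of 45 were higher, 7 lower and 38 neither, with a median log2 ratio of -0.12 beside -0.03 for all genes, of which 6.74% were higher and 8.41% lower. The lower genes included inhibitors of NF-kappaB that are themselves induced by it, Tnfaip3 (4.50-fold, 3.09 to 6.78) and Nfkbia (184 CPM in HFD and 598 in CD, 3.24-fold, 3.05 to 3.45). Nfkbiz, which codes for a regulator of NF-kappaB that is also induced by it, was lower 3.78-fold (3.32 to 4.32), with 40.2 CPM in HFD and 152 in CD. Il1f9, which codes for an interleukin 36 ligand, had 0.606 CPM in HFD and 5.79 CPM in CD and was lower 9.56-fold (3.56 to 36.1, from 4 and 66 UMIs). The sensor gene Mefv (2.32-fold, 0.844 to 7.90) and Sigirr, an inhibitory receptor (1.93-fold, 0.894 to 4.62), were lower on 5 and 9 UMIs in HFD, with intervals that hold a ratio of 1. Pycard, at 1.14-fold lower, and Gsdmd, at 1.17-fold lower, were within 1.5-fold in that comparison. In WD over HFD, 34 of 49 were higher, 6 lower and 9 neither, with a median log2 ratio of 1.58 beside 0.48 for all genes, of which 47.9% were higher and 25.9% lower. The largest differences were in Tnfaip3 (129-fold, 90.6 to 189), Nlrp1b (58.8-fold), Nfkbiz (40.8-fold), Casp4 (37.5-fold), Il18rap, a chain of the interleukin 18 receptor (19.0-fold), and Nlrp12 (15.9-fold, from 288 and 2 UMIs). These were not centred by intron length either, and 86.9% of genes in the bin with the longest introns were higher in WD over HFD.

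Across 25 cell groups of the 3 libraries, each defined by marks and detected genes, the 3 genes most like Il1b among 6839 were 2310001H17Rik (Pearson r 0.86), Hmgb2 (0.84) and Rnf149 (0.83). For Il18 they were Evi2a (0.94), Clec4a2 (0.92) and Pilra (0.90), and for Casp1 they were Nrros (0.86), Akr1c13 (0.86) and Fcrls (0.85). Il18 and Casp1 had an r of 0.70 with each other, Il1b and Il18 0.49, and Il1b and Casp1 0.22. These groups share libraries and depth, so the values describe likeness only, and Il1a, Il1rn, Il1r2 and Nlrp3 had too few UMIs in some library to be placed.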

How the data were processed

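The deposited files hold whole-number counts of UMIs per gene and cell barcode, which the authors made with counting software of version 7.2.0 for WD and 3.0.1 for HFD and CD, per the file headers. Build GRCm38 and Seurat are named in the submitters' processing notes. The library kit is given as 10x 3′ v2 per the labels. HFD and CD list the same 737280 barcodes, but only 92 of the 6885 barcodes of WD are among them. The barcodes of WD thus go against a kit shared with HFD and CD, and which kit WD had is not known here. The sources used here do not state intron and strand settings. Opposite-strand models overlap Il1b, Il1a, Il1r2 and Il18, and a same-strand model overlaps Il1r2, so reads may be shared. WD was counted over a list of 32285 genes and HFD and CD over 31053, and the 30406 that all 3 share were used. The libraries held 79269380 UMIs in WD, 16630481 in HFD and 17464149 in CD.

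Cells were kept and marked as the report states, and UMIs were summed over cells and divided by their total (CPM). Intervals are exact Poisson for CPM, exact conditional binomial for ratios and Clopper-Pearson for shares. A 0 allows 3 counts. No cell clustering and no doublet caller were used, and classes such as NK-like rest on fixed marker lists. Thinning used 1000 UMIs per cell and a fixed seed. The named pathway genes are the 6 with the largest difference per comparison, beside inflammasome partners chosen after their values were seen. The members and lists were chosen with earlier results of these data known. Fold and interval code was tested on simulated data. Alternatives covered thinning, equal weight per cell, other cell and mark minimums, no S100-marked cells and centring by intron length. The HFD and CD libraries alone and the intron centring were added after seeing the data. Python 3.11.15, NumPy 2.4.6, SciPy 1.17.1, pandas 2.3.3 and Matplotlib 3.10.9 were used.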

Additional observations from a re-analysis of the deposited data

Results flagged for a closer look

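The direction of some splits differed between libraries, and these differences between libraries were not tested. Il1b was higher in Ccr2-detected cells in WD (log2 ratio 0.62) and CD (0.97) and lower in HFD (-0.65). With cells thinned to 1000 UMIs each came short of 1.5-fold, at 0.46 in WD, 0.07 in CD and -0.28 in HFD. Il1r2 was higher in Lyve1-detected cells in WD (0.95) and CD (1.12) and lower in HFD (-2.95, from 2 and 21 UMIs). Il1r2 was higher in Tmem119-detected cells of HFD (1.96, from 5 and 18 UMIs) and lower in those of CD (-1.51, from 4 and 178 UMIs).

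Barcodes with fewer than 100 UMIs, which no comparison used, held transcripts of the family above the limit that a count of 3 sets, 0.703 CPM in HFD and 0.934 CPM in CD. In the 287280 such barcodes of HFD the levels were 24.2 CPM for Il1b, 2.81 for Il1r2, 13.8 for Il18, 4.92 for Nlrp3 and 25.1 for Casp1. In the 271368 of CD they were 109 CPM for Il1b, 7.16 for Il1rn, 8.72 for Il1r2, 11.5 for Il18, 11.8 for Nlrp3 and 36.1 for Casp1. Mitochondrial genes made 55.3% of these UMIs in HFD and 57.1% in CD. With mitochondrial genes left out of both totals, C1q-marked cells of HFD had 78.5 CPM for Il1b, 3.65 for Il1r2, 37.1 for Il18, 13.2 for Nlrp3 and 68.3 for Casp1, against 54.0, 6.30, 30.95, 11.02 and 56.1 in these barcodes. C1q-marked cells of CD had 177 CPM for Il1b, 15.98 for Il1rn, 16.6 for Il1r2, 39.4 for Il18, 25.8 for Nlrp3 and 85.6 for Casp1, against 255, 16.7, 20.3, 26.8, 27.6 and 84.2. The near-empty barcodes were thus higher for Il1r2 in HFD and for Il1b, Il1rn, Il1r2 and Nlrp3 in CD, and why was not tested.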

How the results depend on the processing

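No paired analysis was possible because each diet has 1 library. Counts of members past 1.5-fold moved as follows. The 4 members higher in S100-marked cells became 1 (Il1b) with cells thinned to 1000 UMIs. The 0 for the Lyve1 split became 1 (Il1rn, lower) with the HFD and CD libraries alone, and the 0 for the Tmem119 split became 1 (Il1b, higher) with cells weighted equally. The 1 member lower in WD over CD became 0 with centring by intron length, and the 1 lower in WD over HFD became 0 with that centring and 0 with thinning. The cause was not tested. No direction of a called value was reversed. Of the single values, 263 stayed within their counting interval and 127 moved.

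Over all alternatives the log2 ratio of WD over CD ran between 1.26 and 3.07 for Il1b, 4.50 and 5.34 for Il1a, 1.81 and 3.80 for Il1r2, 2.66 and 3.64 for Nlrp3, and -1.29 and -0.54 for Casp1. The lowest for Il1b, Il1r2 and Nlrp3 came with the C1q mark at 1% of UMIs. In HFD over CD it ran between -1.18 and -0.38 for Il1b, -2.24 and -0.62 for Il1r2, -1.70 and -0.36 for Il1rn and -1.21 and -0.61 for Nlrp3. Depth limits Il1a, Il1rn, Il1r2 and Nlrp3 in HFD.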
